A study of Mus musculus with 4 samples.

Results

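Interferon-stimulated genes were examined in CD4+ thymocytes of wild-type mice and of mice without miR-142, before and after the last maturation step in the thymus. The set was a list of 44 genes. It was ordered by role into sensors of viral nucleic acid, transcription factors, antiviral effectors, GTPases, genes of ubiquitin, ISG15 and PARP pathways, and others. On the Affymetrix Mouse Gene 1.0 ST array, which reads transcripts with many short probes along the gene, 40 of the 44 had a probe set that names that gene alone. Gbp2, Gbp6 and Isg15 occurred only in probe sets that list several genes and were not used, and Ifi44 was not matched. The 40 genes stand among 19938 genes with such a probe set, and all 40 exceeded background on all 4 arrays.

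All mice were C57BL/6n and 8 weeks old. The control pool held 5 miR-142+/+ (WT) mice, 3 female and 2 male, and the mutant pool held 4 miR-142-/- mice, 1 female and 3 male. After removal of CD8+ cells on beads, each pool was sorted into CD4+CD8-CD69+Qa2- cells, the earlier stage, and CD4+CD8-CD69-Qa2+ cells, the later stage. Each of the 4 combinations is 1 array on RNA from pooled animals, with no drug or infection named. Differences between genotypes, and between stages within a genotype, therefore rest on single arrays, and no p-value is given for them. For the miR-142-/- Qa2- array a free-text label says Qa2+, while its title and sort entry say Qa2-, and the title was used.

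Type I interferon binds the IFNAR receptor, whose kinases JAK1 and TYK2 activate transcription factors that include STAT2 and IRF9. The activated complex binds the interferon-stimulated response element, a short paired GAAA motif in the promoters of target genes. The products sense viral RNA and DNA, block viral translation and replication, or raise and damp the response itself, and thymocytes are known to express many of them at late stages of maturation. The microRNA miR-142 is made in blood cells from 1 hairpin that gives 2 mature strands, both removed in the mutant. The strands are shown because their loss defines the mutant, with the seed, bases 2 to 8, in capitals.
mmu-miR-142a-5p: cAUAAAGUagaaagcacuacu
mmu-miR-142a-3p: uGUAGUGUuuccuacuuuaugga
In GRCm38.p6 they lie on the + strand at chr11:87756867-87756887 and chr11:87756903-87756925 (RefSeq). The seeds of the strands differ from each other.

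The promoter table of RefSeq (GRCm38.p6) held an entry for 28 of the 40 genes, in 37 windows from 250 bases before the start site to 50 after it. The response element's core, GAAA followed by any 2 bases and a second GAAA, was searched on both strands. It occurred in 14 of the 28 genes (50.0%) and 15 of the 37 windows (40.5%), against 3.99% of 27025 genes and 3.44% of 32851 windows in the whole table. The 250 bases before the start site are shown for Ifit3, Ifit1, Rsad2 and Gbp3, the first 3 among the genes furthest below WT and Gbp3 the one gene at least 1.5-fold above it. Capitals mark the response element core, which lies on the opposite strand in each and so reads TTTC, 2 bases and TTTC.
Ifit3, chr19:34583279-34583528, + strand: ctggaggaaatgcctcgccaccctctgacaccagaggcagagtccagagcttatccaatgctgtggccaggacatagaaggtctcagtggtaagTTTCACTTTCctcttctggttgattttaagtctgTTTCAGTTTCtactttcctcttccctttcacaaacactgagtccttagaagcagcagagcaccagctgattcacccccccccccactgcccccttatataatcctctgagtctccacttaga
Ifit1, chr19:34640639-34640888, + strand: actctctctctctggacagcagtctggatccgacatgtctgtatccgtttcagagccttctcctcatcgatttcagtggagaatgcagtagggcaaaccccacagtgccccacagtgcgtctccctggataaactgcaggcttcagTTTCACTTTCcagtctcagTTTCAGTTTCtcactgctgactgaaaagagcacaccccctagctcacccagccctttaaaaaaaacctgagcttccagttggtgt
Rsad2, chr12:26456453-26456702, - strand: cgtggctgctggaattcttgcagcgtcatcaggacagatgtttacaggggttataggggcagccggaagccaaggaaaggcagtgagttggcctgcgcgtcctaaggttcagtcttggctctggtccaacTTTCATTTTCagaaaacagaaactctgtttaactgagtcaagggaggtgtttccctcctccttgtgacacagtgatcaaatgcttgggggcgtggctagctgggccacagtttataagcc
Gbp3, chr3:142559794-142560043, + strand: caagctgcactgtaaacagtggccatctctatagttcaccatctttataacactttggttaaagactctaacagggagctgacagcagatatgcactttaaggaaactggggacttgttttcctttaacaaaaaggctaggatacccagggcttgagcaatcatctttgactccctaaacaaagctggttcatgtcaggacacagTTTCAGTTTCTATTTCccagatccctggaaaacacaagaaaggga
Ifit3 and Ifit1 each hold 2 separate copies and Rsad2 holds 1, while the 2 copies in Gbp3 overlap each other. The first bases of the copies stand at -156 and -122 from the start site in Ifit3 and at -104 and -85 in Ifit1. Those of Rsad2 and Gbp3 begin at -120 for the former and at -45 and -39 for the latter. Gbp3 has 2 windows, and only the 1 shown holds the core, while Ifit3, Ifit1 and Rsad2 have 1 window each. The gene that was higher in the mutant thus carries the same letters in 1 of its 2 windows. The 14 genes with the letters had a median genotype difference of -0.39 in Qa2- and -0.51 in Qa2+ cells, and the 14 without had -0.26 and -0.27, on the log2 scale. The 12 genes without an entry are in neither group. Among them are Oas2, Dhx58 and Ifi27l2a, at least 1.5-fold lower in both populations, and Zbp1 and Gbp4, near WT. This split is a description of the windows in the table, and a match is not a binding site.

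Values are log2 signal, and genotype differences are miR-142-/- minus WT. The labels were first set against marker genes. The Mir142 probe set read 10.11 in Qa2- and 9.41 in Qa2+ cells of WT mice, and 5.29 and 4.88 in those of the mutant, below the background threshold of 5.87. Cd4 read 12.36 to 12.64 on the 4 arrays. Cd69, the marker of the earlier sort, was higher in Qa2- cells of both genotypes, at 11.32 against 10.55 in WT and at 11.51 against 10.55 in the mutant. The pools also differed in sex-linked transcripts. Xist, the RNA that silences an X chromosome in females, read 12.67 and 12.14 in WT but 5.06 and 4.83 in the mutant, and 3 Y-linked genes read 4.29 to 5.09 in WT but 9.72 to 10.58 in the mutant. These values do not match pools that both hold females and males. Genotype and sex cannot be told apart on these arrays, and none of the 40 genes lies on X or Y.

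Loss of miR-142 went with lower signal of a subset of interferon-stimulated genes, mostly antiviral effectors, in both populations. In Qa2- cells 10 of 40 were at least 1.5-fold lower in the mutant (0.585 or more below WT on the log2 scale), against 3.74% of the 12581 genes above background. In that population 1 was at least 1.5-fold higher, against 3.10% of all genes. In Qa2+ cells 14 of 40 were lower (background 4.88%) and 0 higher (background 4.55%). Of the 40 genes, 9 were lower by this measure in both populations (background 2.75%) and 15 in at least 1 (background 5.87%). The 9 were Ifit3, Ifit1, Rsad2, Oas2, Oas3, Isg20, Cmpk2, Dhx58 and Ifi27l2a.

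The median difference over the 40 genes was -0.32 in Qa2- cells and -0.39 in Qa2+ cells, while that over all genes above background was -0.0012 and 0.0010. At least 1.5-fold higher in either population was 1 gene of the 40, Gbp3 (background 5.52%). Differences ran from -1.44 to 0.67 in Qa2- and from -1.91 to 0.43 in Qa2+ cells. They were below 0 in both populations for 29 of the 40 genes, against 35.4% of all genes, and above 0 in both for 6, against 35.3%. The 2 populations come from the same pools, so their differences repeat the comparison in other cells but not in other mice. Over the 40 genes the correlation of the differences was 0.901, and over all genes above background 0.783. The scatter of genes not made in thymocytes gives a scale for single differences, since olfactory and vomeronasal receptor genes had an SD of 0.147 in Qa2- and 0.18 in Qa2+ cells. Such low-signal genes do not measure variation between mice.

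**Figure D1:**
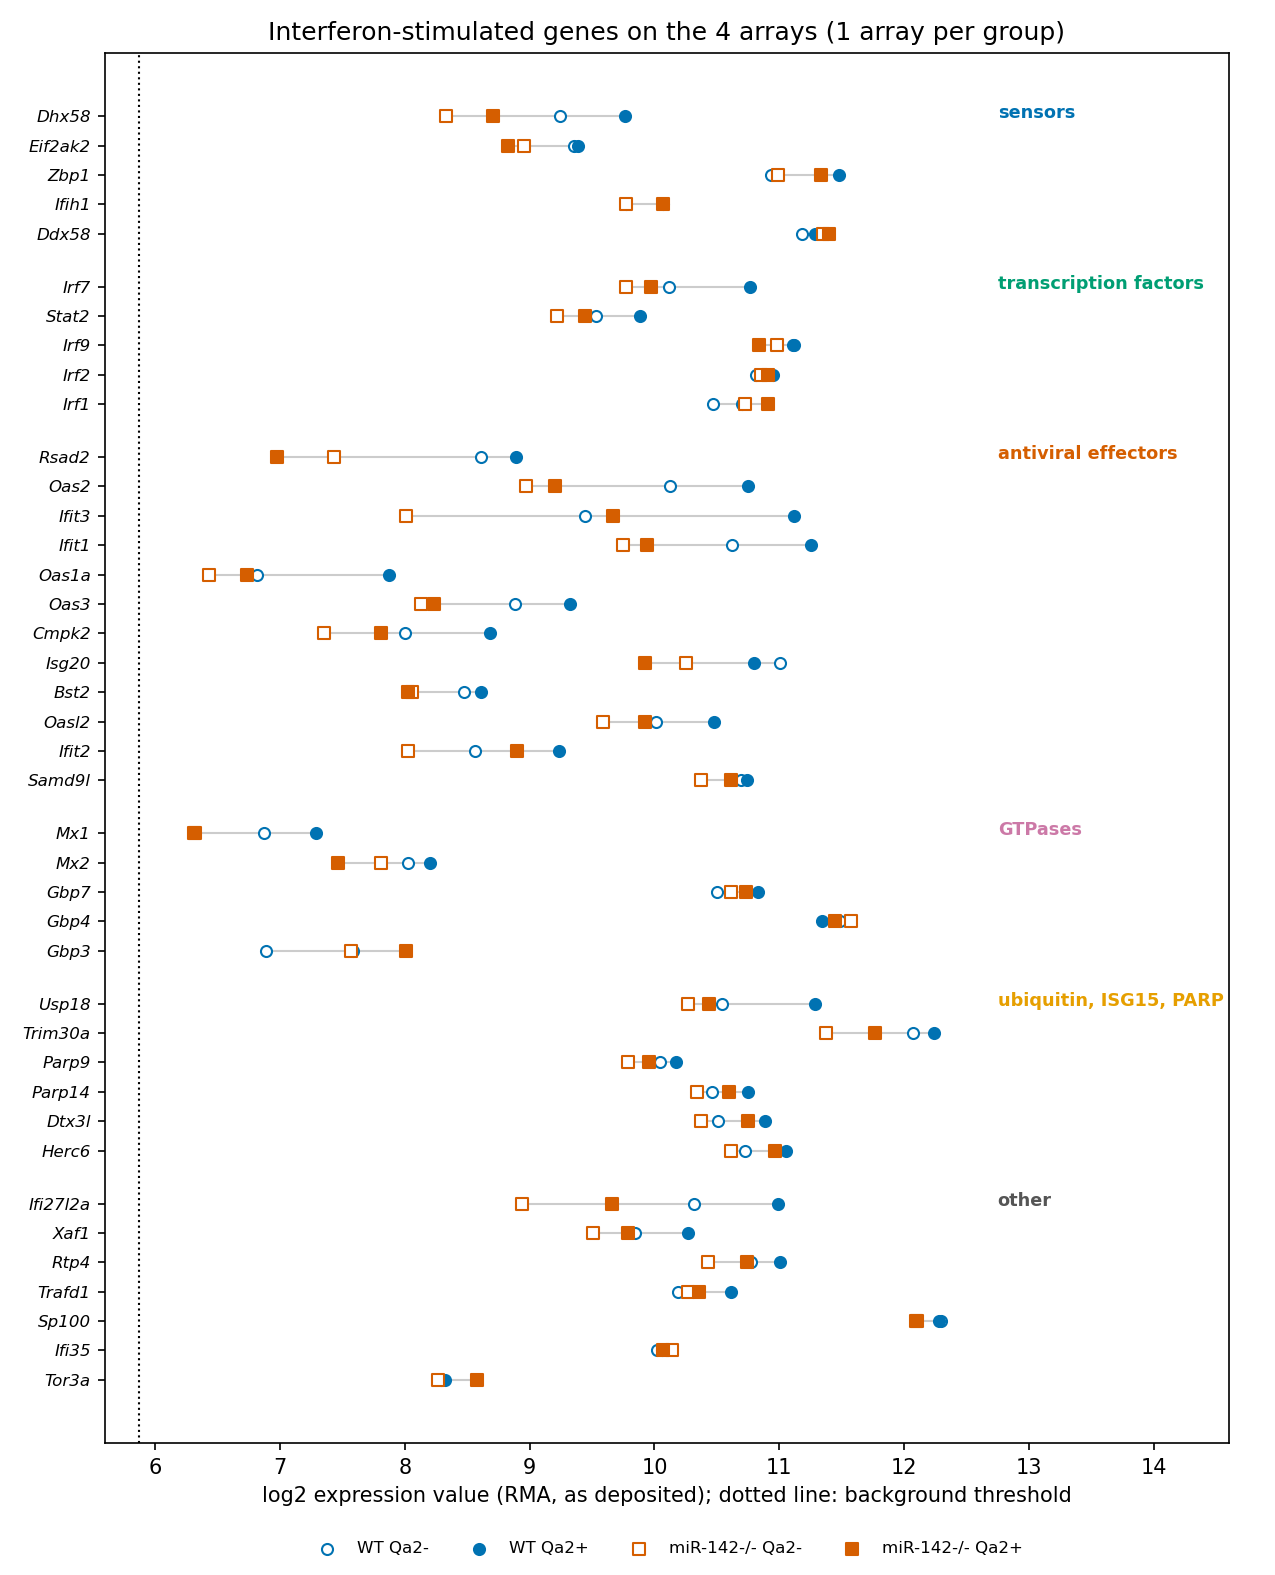
Log2 signal of each of the 40 interferon-stimulated genes (1 line of points per gene) on each of the 4 arrays, grouped by role, with 1 array per group and so no error bars. The mutant points lie below the WT points for most effectors, and for Gbp3 above them.

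**Figure D2:**
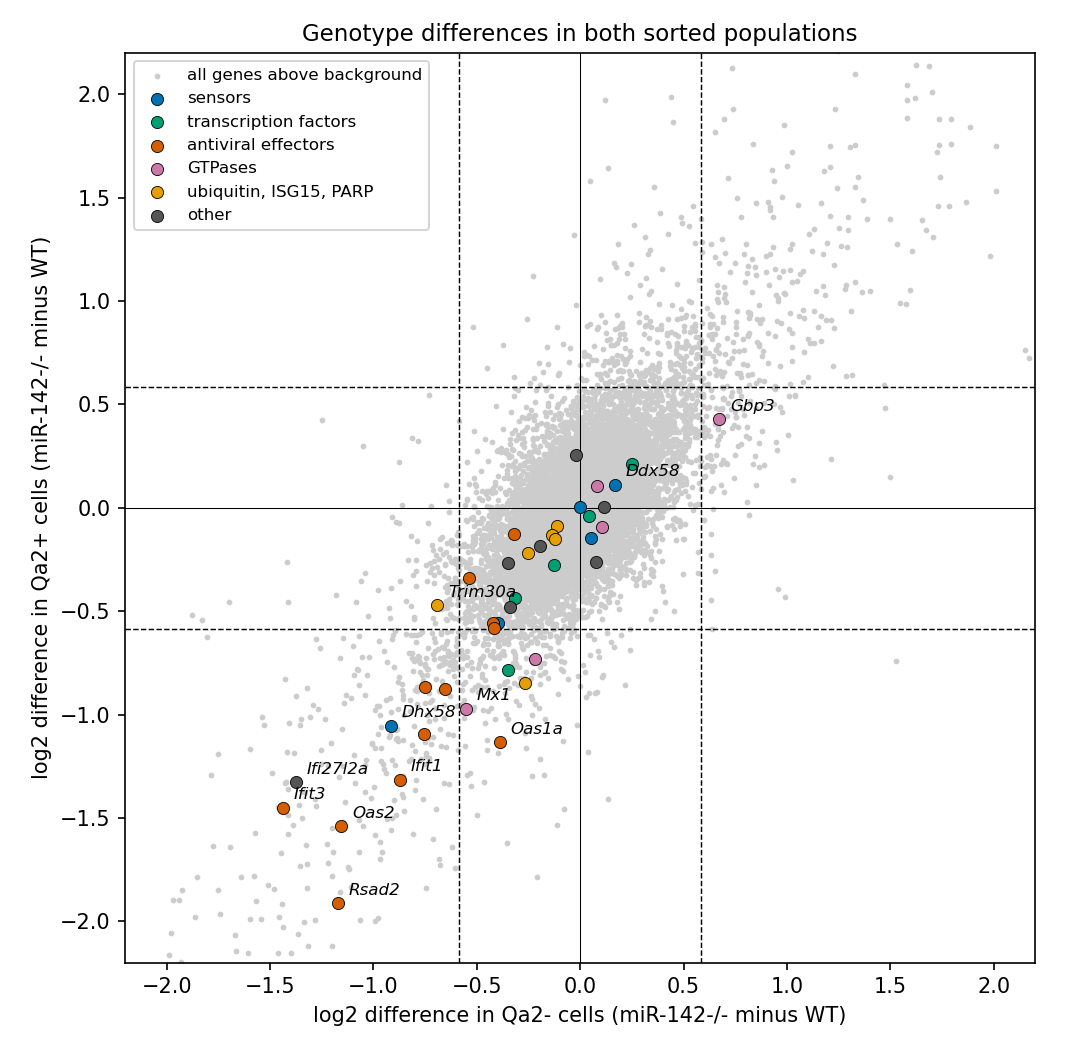
Genotype difference (miR-142-/- minus WT, log2) in Qa2- cells on the x axis and in Qa2+ cells on the y axis, with interferon-stimulated genes in colour over all genes above background in grey, and 52 genes beyond the axes. The effectors reach down to -1.44 and -1.91, and Gbp3 stands alone at 0.67 and 0.43.

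The antiviral effectors held most of the lower genes. All 12 effectors found had differences below 0 in both populations, with medians of -0.70 in Qa2- and -0.98 in Qa2+ cells. At least 1.5-fold lower were 7 of 12 in Qa2- (background 3.74%) and 8 of 12 in Qa2+ cells (background 4.88%). Rsad2 encodes viperin, a radical-SAM enzyme that makes a chain-terminating nucleotide. It read 8.61 in WT Qa2- and 8.89 in WT Qa2+ cells, and 7.43 and 6.98 in the mutant cells in the same order. Both mutant values lay below both WT values, and the fold difference was 2.25 in Qa2- and 3.76 in Qa2+ cells. Here and below, such an order compares 1 pool with 1 pool, and its share over all genes is not given. Cmpk2, a mitochondrial nucleotide kinase gene next to Rsad2 with no coding gene between them, read 8.00, 8.68, 7.35 and 7.81 in WT Qa2-, WT Qa2+, mutant Qa2- and mutant Qa2+ cells. Its mutant values were also below both WT values, by 1.57-fold in Qa2- and 1.83-fold in Qa2+ cells.

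The IFIT proteins bind viral RNA and hold back its translation. Ifit3 in WT read 9.45 before and 11.12 after the Qa2 step, and in the mutant 8.01 and 9.67. Its difference between genotypes was nearly equal at the 2 stages, 2.71-fold in Qa2- and 2.73-fold in Qa2+ cells, and the mutant Qa2+ value lay above the WT Qa2- value. Ifit1 read 10.62 and 11.25 in WT against 9.75 and 9.94 in the mutant, 1.83-fold and 2.49-fold lower. Both mutant arrays were below both WT arrays for Ifit1. Ifit2, the neighbour of Ifit3, read 8.56 and 9.23 in WT against 8.02 and 8.90 in the mutant. Its differences of -0.54 and -0.34 did not reach 1.5-fold, so 3 genes of 1 cluster differed in size of difference. These genes have close copies, and how far the probe sets separate them was not tested.

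The 2'-5' oligoadenylate synthetases make the messenger that activates RNase L. Oas2 read 10.12 and 10.75 in WT against 8.97 and 9.21 in the mutant, 2.23-fold and 2.91-fold lower. Oas3, adjacent to Oas2, read 8.89 and 9.32 against 8.13 and 8.23, a 1.69-fold and 2.13-fold difference. In both, each mutant value lay below each WT value. Oas1a read 6.82 and 7.87 in WT against 6.43 and 6.74 in the mutant, and the log2 difference was -0.39 in Qa2- but -1.14 in Qa2+ cells. Oasl2, which encodes a synthetase-like protein, read 10.01 and 10.48 against 9.59 and 9.92, or -0.42 and -0.55 on the log2 scale. Its mutant Qa2+ value thus lay just under the WT Qa2- value. Oas1b and Oas1c, relatives outside the 44 genes, had differences of -0.04 and -0.07 for the former and -0.52 and -0.88 for the latter.

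Isg20, an exonuclease of single-stranded RNA, read 11.01 and 10.80 in WT against 10.25 and 9.93 in the mutant. The mutant values were 1.69-fold and 1.83-fold lower and both below both WT values. Samd9l, a restriction factor for poxviruses, had differences of -0.32 and -0.13. Bst2, which encodes tetherin, a surface protein that holds budding virions on the cell, had -0.42 and -0.58, the second just short of 1.5-fold.

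**Figure D3:**
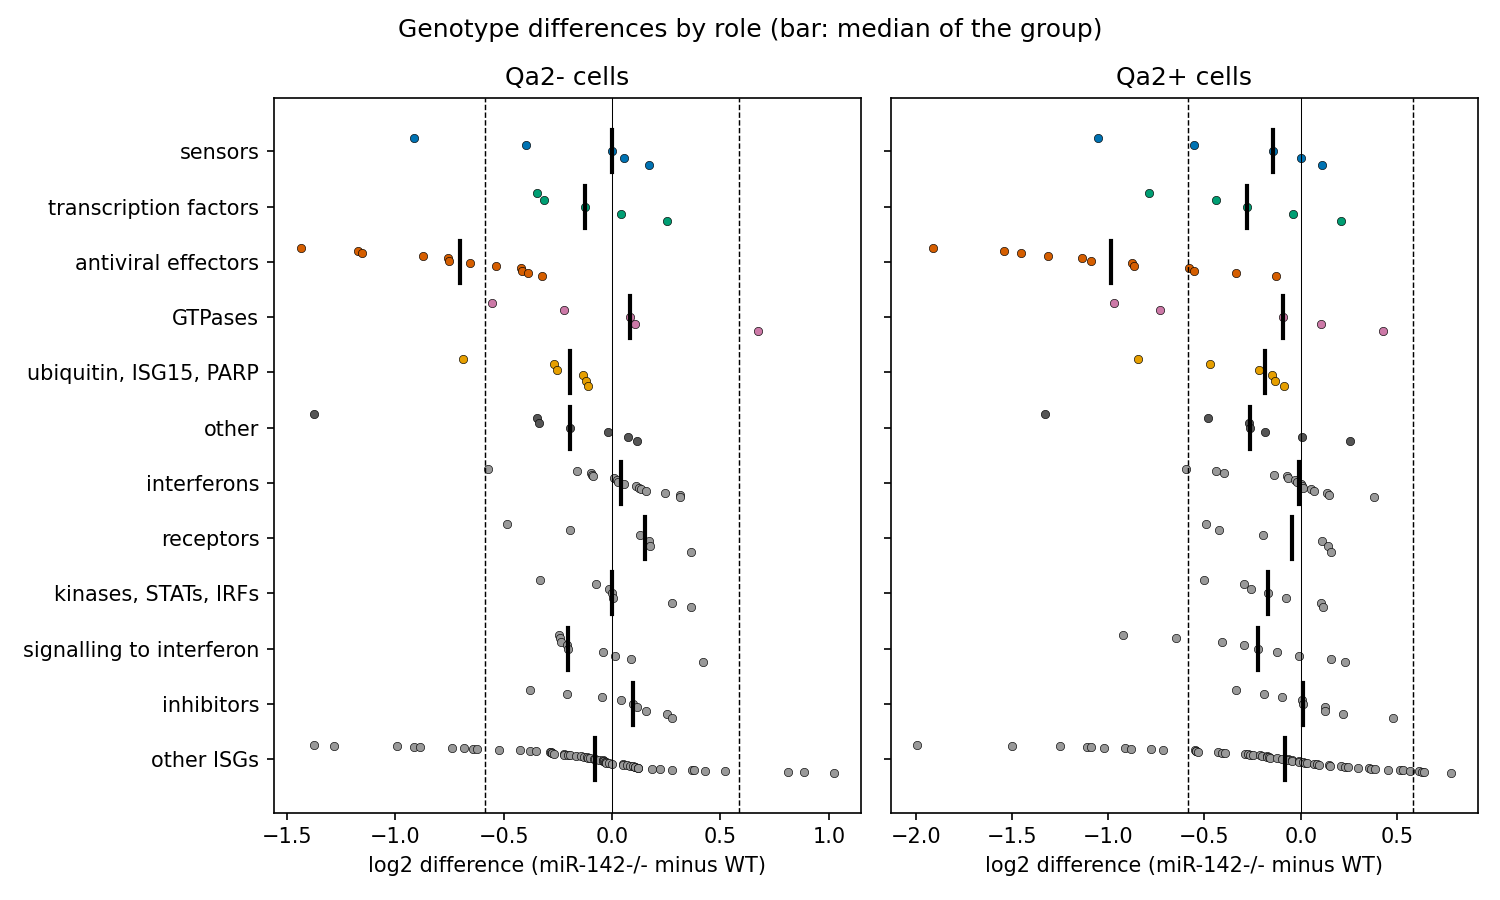
Genotype difference (log2, miR-142-/- minus WT) of each interferon-stimulated gene by role class, for Qa2- and Qa2+ cells, with 1 array per group and so no error bars. All 12 effectors lie below 0 in both populations, and so do all 6 genes of the ubiquitin, ISG15 and PARP class, nearer to 0. Sensors, transcription factors and GTPases lie on both sides.

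Among the 5 sensors only Dhx58 was at least 1.5-fold apart. The gene encodes LGP2, the RIG-I-like protein that modulates its relatives. Dhx58 read 9.25 and 9.76 in WT against 8.33 and 8.71 in the mutant, a 1.88-fold difference in Qa2- and a 2.08-fold one in Qa2+ cells. Its relatives that signal lay closer to WT. Ddx58, encoding RIG-I, read 11.18 and 11.28 against 11.35 and 11.40. Ifih1, encoding MDA5, read 9.77 and 10.07 in both genotypes, with differences of 0.0007 and 0.0023. The Z-form nucleic acid sensor Zbp1 read 10.93 and 11.48 in WT and 10.99 and 11.33 in the mutant. Eif2ak2 encodes PKR, the kinase that stops translation on double-stranded RNA. It read 9.35 and 9.39 against 8.96 and 8.83, so both mutant values were lower, by 1.32-fold and 1.47-fold.

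Of the transcription factors, Irf7, which amplifies interferon production, was the one that reached 1.5-fold, and only in Qa2+ cells. Irf7 read 10.12 and 10.76 in WT against 9.77 and 9.98 in the mutant, a 1.27-fold difference at the Qa2- stage and 1.73-fold at the later one. The factors that carry the receptor's signal differed less. Stat2 read 9.53 and 9.88 against 9.22 and 9.45, differences of -0.31 and -0.44. Irf9 read 11.11 and 11.12 against 10.98 and 10.84, differences of -0.13 and -0.28. Irf1, an activator induced by interferon gamma, was higher in the mutant at both stages, at 10.72 and 10.91 against 10.47 and 10.70. A second Irf1 probe set gave 0.22 and 0.48 where the one used gave 0.25 and 0.21. Irf2, an antagonist of Irf1, read 10.81 and 10.95 in WT and 10.86 and 10.91 in the mutant, and its differences of 0.04 and -0.04 were within the scatter of receptor genes.

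The GTPases lay on both sides of WT, with medians of 0.08 in Qa2- and -0.09 in Qa2+ cells. Mx1 and Mx2 encode dynamin-like restriction factors and are annotated by RefSeq as transcribed pseudogenes in this strain's genome. Mx1 read 6.87 and 7.29 in WT against 6.31 and 6.32 in the mutant, 1.47-fold and 1.96-fold lower. Mx2 read 8.03 and 8.20 against 7.81 and 7.47, with 1.17-fold and 1.66-fold differences. Both genes were thus past 1.5-fold only in Qa2+ cells. Gbp3, a guanylate-binding protein gene of defence against microbes in vacuoles, went the other way. It read 6.89 and 7.58 in WT against 7.57 and 8.01 in the mutant, 1.60-fold higher in Qa2- and 1.35-fold higher in Qa2+ cells. Its neighbour Gbp7 had differences of 0.11 and -0.09, and Gbp4 had 0.08 and 0.11, so neither differed by more than the receptor-gene SD in either population.

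Usp18 removes ISG15 from proteins and blocks the interferon receptor. It read 10.54 and 11.29 in WT against 10.27 and 10.44 in the mutant, a log2 difference of -0.27 before and -0.85 after the Qa2 step. Trim30a, a restraint on Toll-like receptor signalling, read 12.07 and 12.24 against 11.38 and 11.77. It was the one gene at least 1.5-fold lower in Qa2- cells alone. The 5 genes lower by this much in Qa2+ cells alone were Irf7, Oas1a, Mx1, Mx2 and Usp18. Whether their differences changed with stage could not be tested. The other genes of the class lay closer to WT. Herc6, an ISG15 ligase, had differences of -0.11 and -0.09. The ubiquitin ligase Dtx3l read 10.51 and 10.88 in WT and 10.37 and 10.75 in the mutant, so it was within 0.14 of WT at both stages. Its partner Parp9 had -0.25 and -0.22, and Parp14, an ADP-ribosyltransferase beside them, had -0.12 and -0.15.

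Ifi27l2a, an interferon-induced mitochondrial protein gene, had the second-lowest difference of all 40 genes in Qa2- cells. It read 10.32 and 10.99 in WT against 8.94 and 9.66 in the mutant, 2.59-fold and 2.51-fold lower. The rest of this class did not reach 1.5-fold. Xaf1, an apoptosis factor, had -0.34 and -0.48, and Rtp4 had -0.35 and -0.27. The nuclear-body gene Sp100 had -0.19 at both stages. Ifi35, Tor3a and Trafd1 had differences between -0.26 and 0.25.

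Markers of other cells were read beside this, since bulk RNA cannot tell fewer cells of a type from less RNA per cell. Most natural killer and innate-like T cell markers were lower in the mutant. At least 1.5-fold lower were 10 of 13 in Qa2- (background 3.74%) and 6 of 13 in Qa2+ cells (background 4.88%). At least 1.5-fold higher were 1 of these markers in Qa2- and 0 in Qa2+ cells. Their summed log2 signal was 12.31 and 11.72 in WT and 10.63 and 10.73 in the mutant, while Ncr1 was below background on every array. Markers of recirculating and effector T cells were lower for 6 of 10 genes and higher for 0 at each stage. Their sums were 13.67 and 13.90 against 13.40 and 13.48. Of 9 regulatory T cell markers 2 were lower in Qa2- and 4 in Qa2+ cells, and 1, Gpr83, was higher at both stages. Their sums were 13.31 and 13.48 against 13.52 and 13.29. Transcripts of cycling cells were lower as well: Mki67 read 9.87 and 10.57 in WT against 7.48 and 8.16 in the mutant, and Top2a 9.73 and 10.28 against 7.68 and 7.67. The part of these cells, and of cycling, in the genotype result was not tested.

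Markers of dendritic cells, B cells and stroma were mostly not lower in the mutant, and some dendritic cell and stroma markers were higher. Of all genes above background 3.10% were at least 1.5-fold higher in Qa2- and 4.55% in Qa2+ cells. Of 8 plasmacytoid dendritic cell markers 0 were lower at either stage, and 2, Tcf4 and Ly6d, were higher at both. Their sums were 11.01 and 10.86 in WT against 11.43 and 11.14 in the mutant. The sums rest mostly on Pacsin1 at 8.90 to 10.16, Tcf4 at 7.44 to 9.65 and Ly6d at 7.34 to 9.65. Spib and Clec10a were below background on every array, and Siglech was near the threshold at 5.84 to 6.17. Of 16 myeloid and dendritic cell markers 1 was lower at each stage, and 1 was higher in Qa2- and 3 in Qa2+ cells. Their sums were 11.52 and 11.38 against 11.74 and 11.73, and Csf1r, Cd14 and Adgre1 were below background on every array. B cell markers summed to 8.52 and 8.77 in WT and 8.37 and 8.58 in the mutant, with Ms4a1, Pax5 and Cd79a below background. Of 13 thymic stroma markers 1 was lower in Qa2- and 0 in Qa2+ cells, while 0 were higher in Qa2- and 1 in Qa2+ cells. Their sums lay between 11.33 and 11.75, with Foxn1 and Krt5 below background. The 4 erythroid markers found summed to between 7.70 and 7.81.

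Interferon-stimulated genes mostly read higher at the Qa2+ than at the Qa2- stage, and 10 of them passed the test. The stage difference, Qa2+ minus Qa2-, was above 0 for 37 of the 40 genes in WT and 31 in the mutant. It was above 0 in both genotypes for 31, against 25.6% of all genes above background. At least 1.5-fold higher in Qa2+ cells were 10 of 40 in WT (background 2.69%) and 3 of 40 in the mutant (background 2.65%). No gene of the set was 1.5-fold lower, where 3.70% of all genes were in WT and 3.64% in the mutant. Medians were 0.33 in WT and 0.22 in the mutant, against -0.064 and -0.0585 over all genes.

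Averaged over the genotypes with genotype as a block, limma called 10 of 40 genes as higher in Qa2+ cells at an adjusted p under 0.05 and 0 as lower. The background was 4.89% of 12581 genes risen and 8.54% fallen, and at an unadjusted p under 0.05 the counts of the 40 were 22 and 1, against 10.3% and 19.5% of all genes. Without the block limma called 0 of 40 genes, with 5 at an unadjusted p under 0.05. Each p rests on 2 pairs of arrays and so mostly on the spread shared over all genes, with 1 residual degree of freedom beside 7.11 from the prior. That 1 degree of freedom is the difference in stage step between the WT and the mutant pool. The p therefore does not measure spread between mice. Markers of other cells also moved with stage. Of 7 double-positive thymocyte markers tested, 5 rose, with sums of 10.80 and 11.44 in WT and 10.73 and 11.35 in the mutant, while Cd8a and Cd8b1 averaged -0.07 and -0.24 and did not pass. Of 9 regulatory T cell markers 4 rose and 1 fell, and Foxp3 rose by 1.91 ± 0.13 (limma adjusted p = 0.000376). Of 9 myeloid and dendritic cell markers tested 4 rose and 2 fell, and Lyz2 rose by 1.15 ± 0.19 (limma adjusted p = 0.00793). Natural killer and innate-like markers gave 1 riser and 1 faller of 10, recirculating and effector markers 2 and 1 of 8, and plasmacytoid markers 1 and 2 of 6. The part of these cells in the stage result was not tested.

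**Figure D4:**
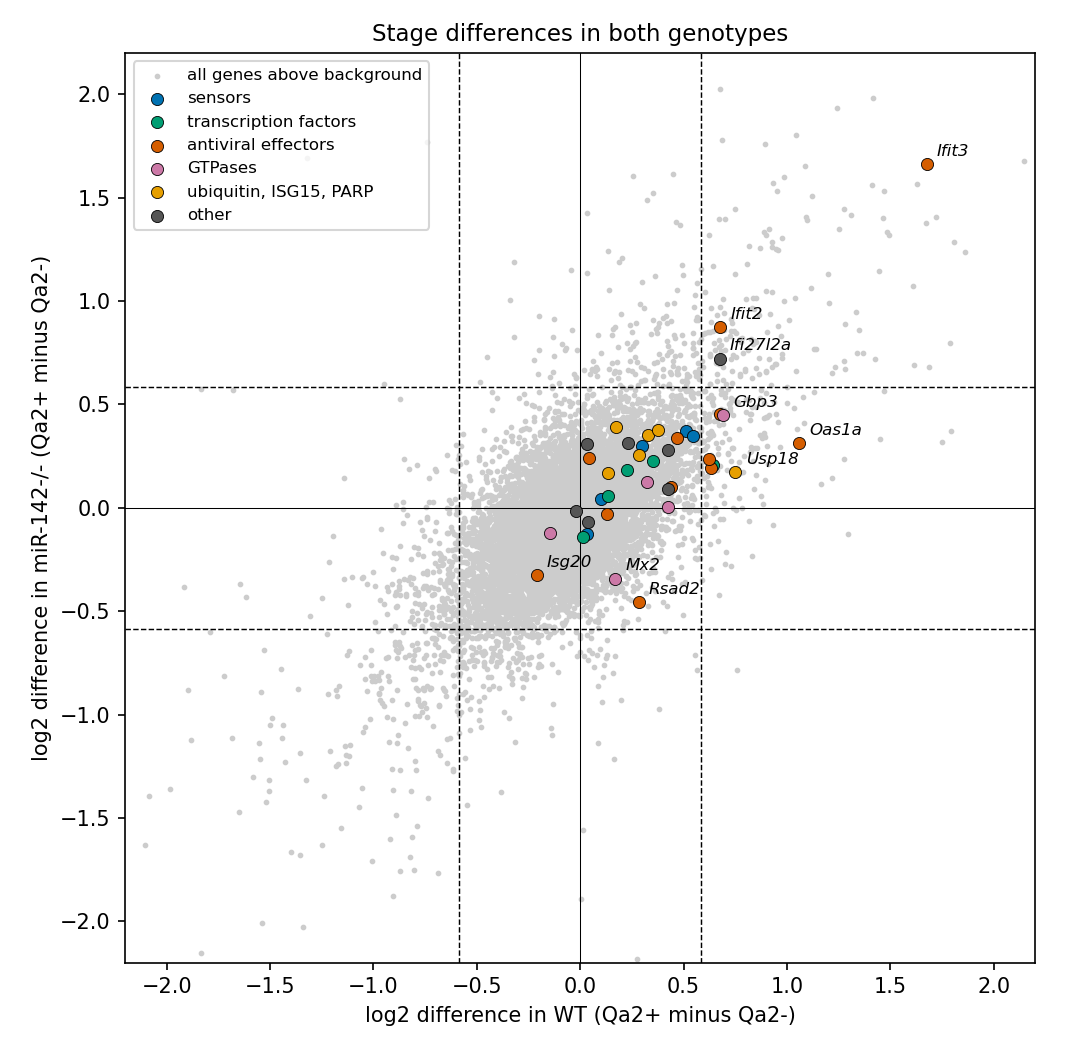
Stage difference (Qa2+ minus Qa2-, log2) in WT on the x axis and in miR-142-/- on the y axis, with interferon-stimulated genes in colour over all genes above background in grey, and 21 genes beyond the axes. Most of the set lies right of 0 and below the diagonal, and Ifit3 stands at 1.68 and 1.66.

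**Figure D5:**
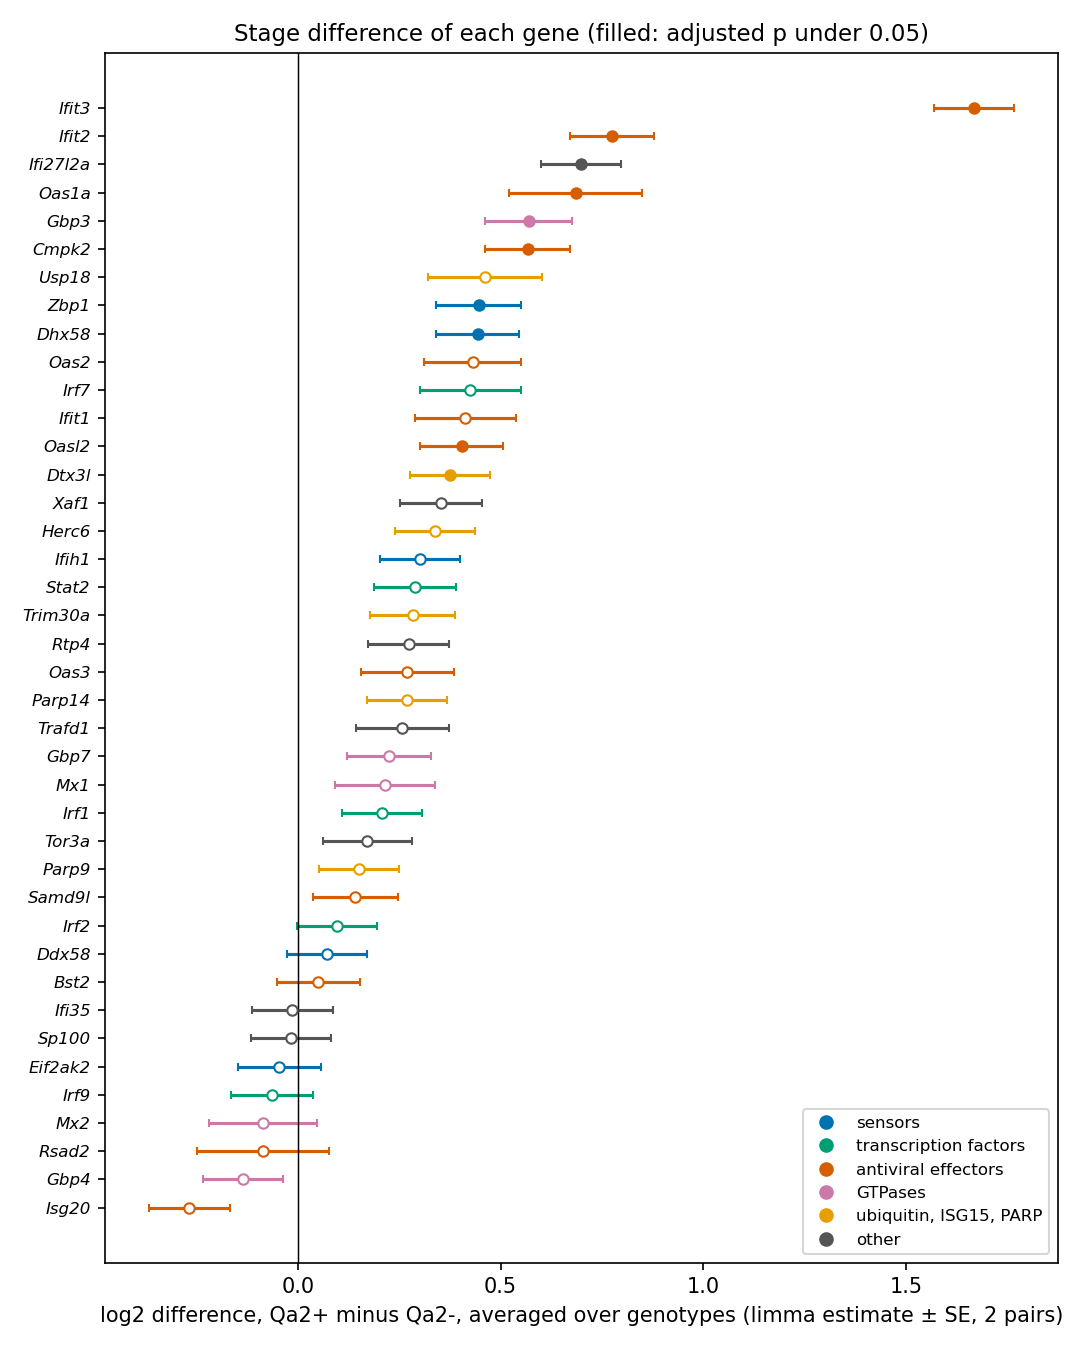
Stage difference averaged over genotypes (log2, limma) for the 40 interferon-stimulated genes, with those at an adjusted p under 0.05 marked. Bars show the limma standard error, which rests mostly on the spread shared over all genes. Ifit3 stands at 1.67 and the other 9 called genes lie between 0.38 and 0.78.

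Ifit3 rose most, by 1.67 ± 0.10 (log2, limma SE, 2 pairs), or 3.18-fold, with a limma adjusted p of 0.00027. The SEs given with ± rest, like the p, mostly on the spread shared over all genes. Ifit3 rose by 1.68 in WT and 1.66 in the mutant, so its lower mutant level at each stage came with a nearly equal step. Ifit2 rose by 0.78 ± 0.10 (limma adjusted p = 0.00377) and Ifi27l2a by 0.70 ± 0.10 (limma adjusted p = 0.00445). The mutant rose as far as WT in these genes, by 0.87 against 0.68 for Ifit2 and by 0.72 against 0.67 for Ifi27l2a. Oas1a rose by 0.68 ± 0.16 (limma adjusted p = 0.0316), but by 1.06 in WT and 0.31 in the mutant.

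The other effectors that passed were Cmpk2, which rose by 0.57 ± 0.11 (limma adjusted p = 0.013), and Oasl2, by 0.40 ± 0.10 (limma adjusted p = 0.0366). Among sensors, Zbp1 rose by 0.45 ± 0.10 (limma adjusted p = 0.0296) and Dhx58 by 0.44 ± 0.10 (limma adjusted p = 0.0271). Gbp3 rose by 0.57 ± 0.11 (limma adjusted p = 0.0135), the 1 GTPase of 5 to pass. Dtx3l rose by 0.38 ± 0.10 (limma adjusted p = 0.0424). The transcription factors gave 0 of 5 calls by limma, with 2 at an unadjusted p under 0.05. Oas2, at 0.43 ± 0.12 and a limma adjusted p of 0.0503, lay just outside the threshold, and Dtx3l just inside.

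Several genes had a smaller stage difference in the mutant than in WT. The mutant step was smaller for 28 of 40 genes (background 50.1%), with a median of -0.13 for mutant minus WT. This difference of differences has no replicate and was not tested. It was 1.5-fold or more below 0 for 2 genes, Oas1a and Rsad2, against 1.58% of all genes. Rsad2 stepped by 0.28 in WT and by -0.46 in the mutant. Usp18 stepped by 0.75 and 0.17, Irf7 by 0.64 and 0.21, and Ifit1 by 0.63 and 0.19. In these 3 genes the WT Qa2+ array was the highest of the 4. The limma adjusted p of the averaged difference was 0.0687 for Usp18, 0.0599 for Irf7 and 0.0665 for Ifit1.

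The rest of the interferon pathway showed few differences of that size between genotypes. Of 21 listed ligands 16 were found and 6 of them were above background. Ifnb1, encoding interferon beta, was below background on all arrays at 4.73, 4.87, 4.89 and 4.94. Ifng, encoding interferon gamma, read 6.66 and 6.44 in WT against 6.09 and 6.00 in the mutant. One ligand gene, Ifnab, was past 1.5-fold in Qa2+ cells, at 5.87 in WT and 5.27 in the mutant, with a mean over the arrays below background. All 6 receptor genes were found and 0 reached 1.5-fold between genotypes. Ifnar1 read 10.72 and 10.77 in WT and 10.90 and 10.88 in the mutant. Ifnar2 read 10.77 and 10.84 in WT and 10.57 and 10.42 in the mutant, below WT by 0.20 and 0.42.

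By stage, receptors moved in both directions. Ifngr1, the ligand-binding chain for interferon gamma, rose by 0.72 ± 0.10 (limma adjusted p = 0.00386) and Il10rb by 0.50 ± 0.12 (limma adjusted p = 0.0291). Ifngr2, the signalling chain, fell by 0.50 ± 0.11 (limma adjusted p = 0.0205). Of the 7 kinase, STAT and IRF genes found, 0 were 1.5-fold apart between genotypes (background 5.87% lower and 5.52% higher in either population). By stage, Stat3 rose by 0.41 and Jak2 fell by 0.42. Of 9 inhibitors 0 were 1.5-fold apart between genotypes, against the same background. Socs3, which blocks JAK kinases, read 7.84 and 8.96 in WT and 7.46 and 8.97 in the mutant and rose by 1.32 ± 0.12 (limma adjusted p = 0.000836). Of 9 upstream signalling genes found, 2 were lower in mutant Qa2+ cells (background 4.88%), Tlr7 by -0.92 and Trim25 by -0.65.

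A further list of interferon-stimulated genes outside the 44 held more genes lower than higher in the mutant. Of 74 listed 58 were found. In mutant Qa2- cells 9 of them were lower (background 3.74%) and 3 higher (background 3.10%). In mutant Qa2+ cells 10 were lower (background 4.88%) and 4 higher (background 4.55%). The medians of this list were -0.08 at both stages, nearer 0 than those of the 40 genes, and no test between the lists was made. Ifi30, a lysosomal thiol reductase of antigen processing, read 9.86 and 10.33 in WT against 8.58 and 8.34 in the mutant. The difference was -1.28 in Qa2- and -1.99 in Qa2+ cells, so both mutant values lay below both WT values. Lgals3bp, a secreted glycoprotein, read 11.47 and 11.60 against 10.58 and 10.49, with the same order. Trim30d, a relative of Trim30a, differed by -1.38 and -0.91.

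Phf11a read 6.21 and 7.55 in WT against 5.30 and 6.05 in the mutant and rose with stage by 1.04 ± 0.14 (limma adjusted p = 0.00391). Ube2l6, the conjugating enzyme for ISG15, read 6.65 and 7.23 against 6.38 and 6.14, differences of -0.27 and -1.09. Trim14, an adaptor of RNA sensing, was higher in the mutant, at 10.41 and 11.09 against 9.38 and 10.31, and rose with stage by 0.80 ± 0.11 (limma adjusted p = 0.00358). Of the 52 genes of this list tested by stage, 10 rose (background 4.89%) and 2 fell (background 8.54%).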

How the data were processed

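RNA from 4 sorted pools was hybridised to 4 arrays. The deposited values are log2 signal per probe set, made by the authors with RMA in Partek per the submitters' processing notes; versions are not given in the sources used here. No depth applies to arrays, and 1 array per group limits the precision. Of 35557 probe sets 21789 name 1 gene, 1621 several and 12147 none. One probe set per symbol was kept, the one with the highest mean. Genes counted as above background exceeded the signal that 95% of 1190 smell and vomeronasal receptor genes stay under, a log2 value of 5.87 (12581 genes). Stage was tested with limma 3.58.1 in R 4.3.3, with genotype as a block because each pool gave both populations, and Benjamini-Hochberg adjustment over all 12581 genes. On simulated data 200 of 200 genes changed by 1 log2 unit were recovered, with 4 false calls. The simulated scatter was drawn from limma's own fitted spread, and changes smaller than 1 log2 unit were not simulated. Most called genes of the set had smaller changes, and recovery at those sizes is not known. Other comparisons are plain differences with a 1.5-fold mark, tried also at 1.2-fold and 2-fold. Alternatives changed scaling, probe sets, the background filter, the block and the prior.

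Values were given for every sensor and transcription factor, for members 1.5-fold apart between genotypes or past the stage test, and for pathway genes 2-fold apart between genotypes or past the stage test by 1.5-fold, at most 6 per list, plus Ifnb1, Ifng, the Ifnar genes, Oas1b, Oas1c and others chosen after their values were seen. The genes and lists were chosen with earlier results of these data known.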

Additional observations from a re-analysis of the deposited data

Results flagged for a closer look

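Above background were 40 genes of the set and 87 of its pathway. Among them 7 had differences that pointed opposite ways in the groups compared and lay at least 1.5-fold apart. Of all 12581 genes, 199 had a mutant step at least 1.5-fold below the WT step and 229 at least 1.5-fold above. Stage differences of opposite sign were found for 3544. The share with both traits is not given, so whether 7 is many cannot be told. With 1 array per group none of these differences was tested. Rsad2 had a stage difference of 0.28 in WT and -0.46 in the mutant, -0.74 apart on the log2 scale. Ifi30 had 0.47 in WT and -0.24 in the mutant, -0.71 apart. Ube2l6 had 0.58 in WT and -0.24 in the mutant, -0.82 apart. Irf8 had 0.51 in WT and -0.36 in the mutant, -0.86 apart, and its genotype difference was 0.36 in Qa2- and -0.50 in Qa2+ cells, the same -0.86. Ifitm1 had a genotype difference of -0.08 in Qa2- and 0.53 in Qa2+ cells, 0.61 apart. Ifitm2 had -0.22 and 0.63, 0.85 apart. Trim12c had -0.38 and 0.21, 0.59 apart.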

How the results depend on the processing

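No member past 1.5-fold or past the stage test changed direction under any alternative; signs changed under another scaling or probe set only for member differences smaller than 0.05 (log2). At 1.2-fold in place of 1.5-fold, 22 members were lower in mutant Qa2- cells (13.7% of all genes), and 23 lower (17.2%) and 1 higher (16.9%) in mutant Qa2+ cells. At that fold 24 were higher in Qa2+ than Qa2- cells in WT (11.1%), and 16 higher (11.3%) and 3 lower (20.2%) in the mutant. At 2-fold, 4 were lower (1.29%) and 0 higher (1.04%) in mutant Qa2- cells, 8 were lower in mutant Qa2+ cells (1.85%), and the stage step was met by 2 in WT (0.525%) and 1 in the mutant (0.715%). In place of 10, the members that rose with stage numbered 17 after quantile normalization (7.79% of all genes rose, against 4.89%), 16 of 39 tested with the 99th percentile as background (6.35%), and 19 with a trended prior (5.54%). With no replicate block, that is without genotype as a pairing of the arrays, 0 members and 0 of 12581 genes passed in limma, with 5 members at an unadjusted p under 0.05, because the genotype difference then counts as spread. The 10 risers were kept in every other alternative. Of all genes called by stage, 36.4% rose with the deposited scaling, 47.5% after centring and 56.0% after quantile normalization, where the median stage difference of all genes went from -0.0617 to 0.0062. Leaving out a replicate was not possible with 1 array per group.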

Other observations

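Other interferon-responsive genes of antigen processing, chosen after their values were seen, differed from WT by less than Ifi30 did. The peptide transporter gene Tap1 differed by -0.10 in Qa2- and -0.13 in Qa2+ cells and rose with stage by 0.43 ± 0.10 (limma adjusted p = 0.0274). The immunoproteasome genes differed by 0.10 at both stages for Psmb8, by -0.17 and -0.29 for Psmb9, and by 0.38 and 0.15 for Psmb10. Nlrc5, the class I transactivator, differed by -0.03 and -0.17. Among the immunity-related GTPases, Irgm1 differed by -0.08 and -0.10 and rose with stage by 0.56 ± 0.10 (limma adjusted p = 0.0102). Iigp1, like Gbp3, was higher in the mutant at both stages, at 9.28 and 9.59 against 8.47 and 8.94.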
